A study of Mus musculus with 24 samples.

Results

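The genes of insulin, IGF1 and PI3K-Akt signaling described here were the ligand Igf1, the receptors Igf1r and Insr, the adaptors Irs1 and Irs2, the PI3K subunits Pik3ca, Pik3c2a and Pik3r1, and the kinases Akt1 and Akt2. They were 10 of the 21000 protein-coding genes with a curated RefSeq transcript in mm10. An H3K27ac peak was assigned to a gene when it shared at least 1 bp with the gene body or lay within 10 kb of any of its RefSeq starts, and 623 of the 469078 peaks of 8 lists met this rule. H3K27ac is an acetylated histone residue found at active promoters and enhancers, and it was measured by ChIP-Seq on isolated quadriceps myofibers of C57BL/6 mice (C57BL/6J in the study's methods). Males and females were 10 weeks of age when treatment started. Treated mice received prednisone, a synthetic glucocorticoid, at 1 mg/kg once per week for 5 injections, and muscle was harvested 4, 6 or 8 days after the last dose. Control mice of each sex received only vehicle (DMSO in PBS). The study's general methods give vehicle on the days between doses, whereas its outline of this cohort marks days without injection. Every group was represented by 2 H3K27ac libraries with 1 input, and the data used here are 8 peak lists, 1 per group. How a list was made from both libraries is not given in the sources used here. No comparison between the lists used here therefore has a replicate error or a test, and all differences below are descriptions of these lists.

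Insulin and IGF1 bind receptor tyrosine kinases that phosphorylate the adaptors Irs1 and Irs2, and these recruit PI3K to the membrane. The lipid product of class I PI3K brings Akt to the membrane, where it is activated. In skeletal muscle, Akt promotes glucose uptake and protein synthesis and restrains the FoxO factors that drive atrophy genes, and sustained glucocorticoid excess is known to oppose this pathway.

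The lists differed in ways that touch every comparison. They held 17482 (male day 4) to 123249 (female day 6) peaks from 7.52 to 50.5 megatags (M), and 5.39% (male day 6) to 47.3% (female day 6) of the tags fell in peaks. The male day 4 list had the lowest depth. Levels are therefore given as tags per 10 M per kb of peak and ranked only within their own list, among peaks over protein-coding promoters. Promoters of 7 of 8 myofiber markers were in a peak in male vehicle, male day 6 and every female list, as were 6 at male day 8 and 3 at male day 4. Of 17 markers of endothelial cells, leukocytes, fibroblasts, satellite cells and adipocytes, 6, 1, 3 and 0 had the promoter in a peak in males (vehicle, day 4, day 6 and day 8) and 3, 9, 10 and 12 in females. All 4 endothelial markers were in a peak in male vehicle and in the 3 treated female lists, against 1 in female vehicle, and 5 of the 17 markers were in no list. The number of marker promoters thus moved broadly with the number of member peaks, and its part in the results was not tested. In bulk chromatin, fewer cells that carry the mark and less mark per cell cannot be told apart.

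All 10 genes had at least 1 peak in every list except female vehicle, where Akt1 had none. Of all protein-coding genes, 77.1%, 47.2%, 51.9% and 50.2% had a peak in the same kind of window in the male lists (vehicle and days 4, 6 and 8, an order kept below) and 55.6%, 73.1%, 80.5% and 75.2% in the female lists. Member peaks numbered 90, 28, 58 and 25 in males and 47, 101, 143 and 131 in females. Male vehicle had more peaks than any treated male list, and female vehicle had fewer than any treated female list, as was also true of the lists as a whole. Since the genes differ in length, peaks were counted per 100 kb of window, which gave 8.96, 2.79, 5.77 and 2.49 in males and 4.68, 10.1, 14.2 and 13.0 in females. The same density over all protein-coding genes was 5.31, 1.17, 1.97 and 1.32 in males and 2.20, 4.32, 7.87 and 5.42 in females. Density at the members was higher than that of all genes in each of the 8 lists. Cut to the 17482 peaks with the most tags, as many as the shortest list held (a ranking chosen after seeing the data), the lists had 27, 28, 40 and 24 member peaks in males and 26, 30, 25 and 32 in females. At equal length, the excess of treated over vehicle lists in females was thus small or absent.

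**Figure D1:**
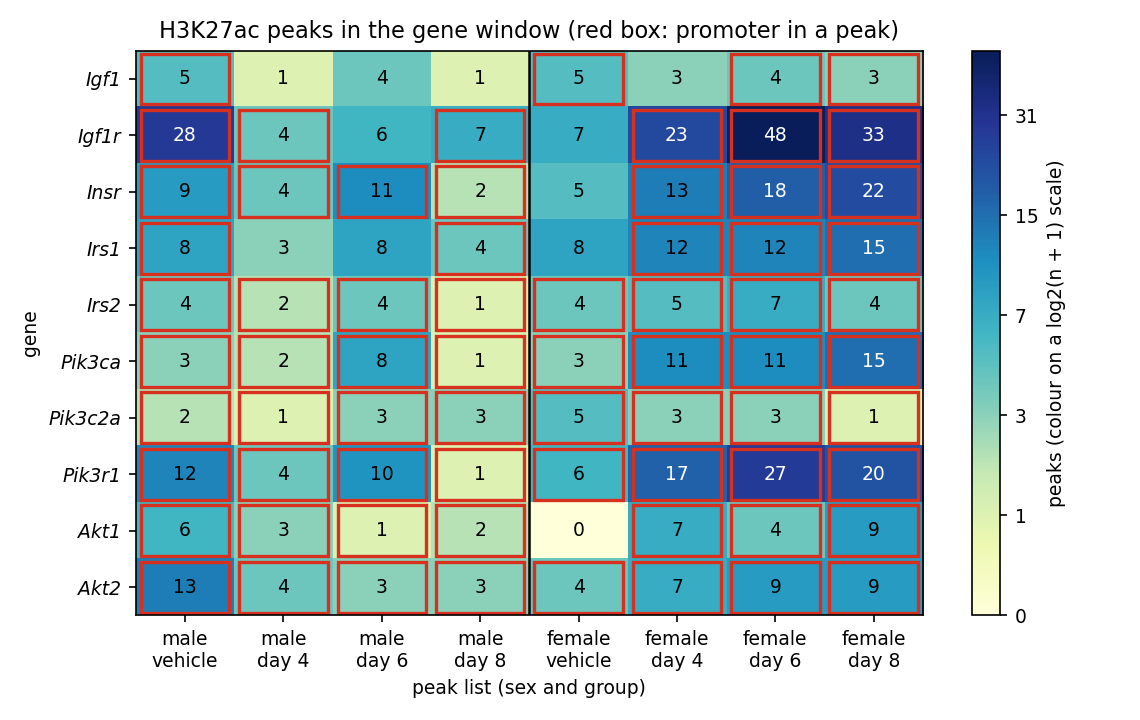
H3K27ac peaks in the window of each gene (rows) in the 8 peak lists (columns), with the number of peaks written in each cell, colour on a log2(n + 1) scale and a red box where a promoter of the gene was in a peak. Akt1 has 0 peaks in female vehicle, and Igf1r has the highest count of the map, 48 at female day 6.

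A promoter was taken as 1 kb before to 100 bp after a start. In males, all 10 member promoters were in a peak of the vehicle list, and 8, 7 and 9 were at days 4, 6 and 8. The background over all protein-coding genes was 48.8%, 27%, 28.1% and 31.8%. In females, the vehicle list had peaks over the promoters of 6 members and the day 4, day 6 and day 8 lists over those of 9, 10 and 10, against a background of 24.3%, 50.9%, 66.7% and 59.6%. Member promoters were thus marked more often than those of all genes in every list. With the lists cut to equal length by tags, the counts were 8, 8, 7 and 9 in males and 6, 9, 9 and 10 in females, against 32.7%, 27%, 26.7% and 31.1% of all genes in males and 20.0%, 40.9%, 46.5% and 45.3% in females. Cut by findPeaks score instead, the counts were 5, 8, 7 and 9 in males and 4, 8, 4 and 5 in females, against 27.4%, 27%, 24.8% and 31.3% of all genes in males and 18.8%, 30.2%, 30.9% and 30.4% in females, so that male vehicle no longer had the most and female day 6 had no more than female vehicle. Irs2, Pik3ca, Pik3c2a, Pik3r1 and Akt2 had the promoter in a peak in all 8 lists, as did 12.5% of all genes. Insr and Akt1 did in 7 lists, Igf1r in 6, Irs1 in 5 and Igf1 in 4. At a fold over input of at least 4, only Pik3ca and Akt2 had the promoter in a peak in all 8 lists. With the lists cut to equal length, no member did by findPeaks score, and Irs2, Pik3ca, Pik3c2a, Pik3r1 and Akt2 did by tags. The share of all genes in all 8 lists is not given under these settings.

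**Figure D2:**
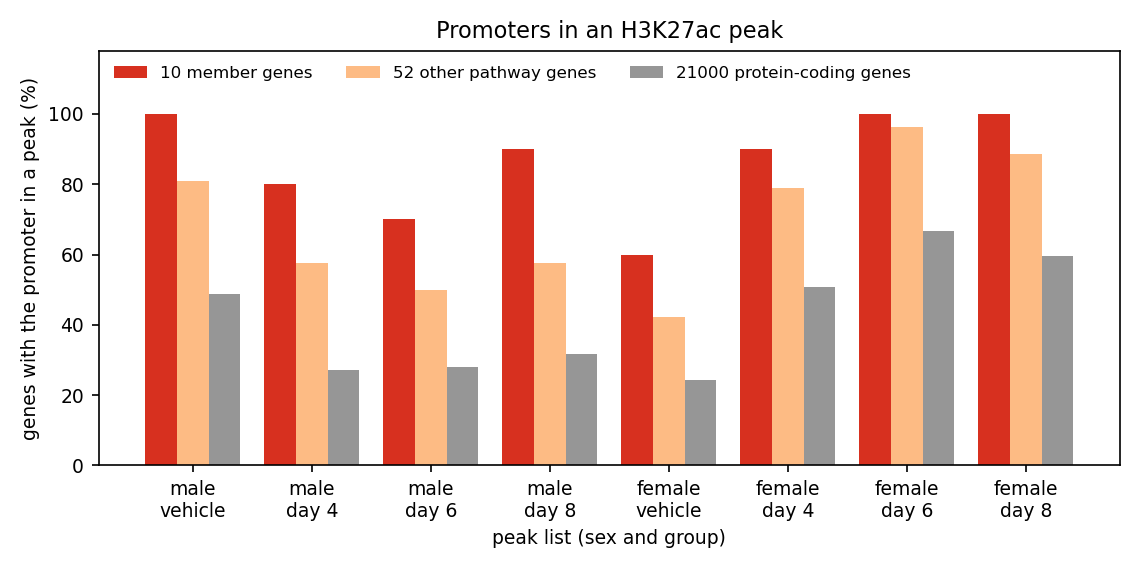
Share of genes with the promoter in an H3K27ac peak (y axis, %) in each list (x axis) for the 10 member genes, 52 other genes of the pathway and 21000 protein-coding genes. The bar of the members is the tallest of the 3 in every list, and female vehicle is the lowest list for members and for all genes.

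RefSeq promoter sequences (GRCm38.p6, 250 bases before to 50 after a start) were matched for 9 of the 10 members, with 14 starts. Most members had CpG-rich promoters. The richest start of each held 48 CpG in 300 bases for Igf1r, 42 for Akt1, 41 for Irs2, 34 for Pik3r1, 31 for Pik3c2a, 28 for Irs1, 20 for Pik3ca and 12 for Akt2, against a median of 7 over 32851 promoters. Igf1, with 6 at the most downstream of its 3 curated starts, was below that median, and its other starts were not matched. Across all genes, promoters with more CpG were more often in a peak. Of the 10841 promoters of 300 bases with 16 to 67 CpG, 64.7% were in a peak for male vehicle and 28.6% for female vehicle. The shares of the 12496 with 0 to 4 CpG were 7.23% and 2.87%. At female days 4, 6 and 8 the CpG-rich class reached 72.2%, 88.7% and 83.5%, against 7.11%, 15.1% and 11.1%. In treated males it was below male vehicle at each day, with at most 47.2% (day 8). The shares of all genes set beside the members were not matched for CpG. The GC box, GGGCGG on either strand (CCGCCC on the other), was found in 8 of the 14 member promoters and in 35.7% of all. The glucocorticoid receptor (GR) consensus ACANNNTGT, which reads the same on both strands, was found in 0 of the 14 and in 6.85% of all. The bases before the start are shown for the promoters of Igf1r, Irs1 and Akt1, in a peak at all treated female days but not in female vehicle, and for Pik3r1, in a peak in all 8 lists. Each is on its gene's own strand, ends at the base before the start and has GC boxes in capitals.
Igf1r, chr7:67952007-67952256, plus strand: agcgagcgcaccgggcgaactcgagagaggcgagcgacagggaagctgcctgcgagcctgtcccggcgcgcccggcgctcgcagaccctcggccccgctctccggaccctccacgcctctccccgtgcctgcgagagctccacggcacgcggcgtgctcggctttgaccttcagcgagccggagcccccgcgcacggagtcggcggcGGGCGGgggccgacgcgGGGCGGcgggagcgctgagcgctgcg
Irs1, chr1:82291440-82291689, minus strand: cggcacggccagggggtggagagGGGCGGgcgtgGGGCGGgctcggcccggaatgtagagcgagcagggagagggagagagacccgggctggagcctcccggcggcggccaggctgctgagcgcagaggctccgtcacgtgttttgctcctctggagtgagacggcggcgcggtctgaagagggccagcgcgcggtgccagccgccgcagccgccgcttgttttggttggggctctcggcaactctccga
Akt1, chr12:112674277-112674475, minus strand: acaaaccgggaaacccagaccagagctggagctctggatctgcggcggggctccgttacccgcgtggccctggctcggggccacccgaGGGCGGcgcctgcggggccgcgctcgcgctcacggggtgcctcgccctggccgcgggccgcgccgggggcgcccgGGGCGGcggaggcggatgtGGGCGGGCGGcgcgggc
Pik3r1, chr13:101768218-101768467, minus strand: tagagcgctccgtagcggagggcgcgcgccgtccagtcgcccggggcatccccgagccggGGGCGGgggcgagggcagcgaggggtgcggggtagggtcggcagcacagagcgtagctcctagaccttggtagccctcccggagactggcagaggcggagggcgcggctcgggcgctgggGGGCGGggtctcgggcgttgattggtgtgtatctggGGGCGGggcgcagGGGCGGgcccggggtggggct
These windows held 2 GC boxes for Igf1r, 2 for Irs1, 4 for Akt1 and 4 for Pik3r1. The Akt1 window is 199 bases long because it was ended at an exon of the predicted noncoding gene Gm30150 on the other strand (chr12:112674476-112674697), and the start it precedes is the downstream of the 2 curated Akt1 starts.

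Igf1 encodes the growth factor that muscle makes itself and that also reaches it through the blood. Its gene (chr10:87858265-87937047) had few peaks, 5, 1, 4 and 1 in males and 5, 3, 4 and 3 in females. A promoter of Igf1 was in a peak in both vehicle lists and at female days 6 and 8. At male day 4, male day 8 and female day 4 the closest peak lay 43300, 61367 and 11010 bp from any of the 3 curated starts, whereas at male day 6 it lay 1836 bp away. The promoter peak had 19.4 tags per 10 M per kb in male vehicle (exact Poisson 95% interval 14.3 to 25.7), 22.6 in female vehicle (15.3 to 32.0), 23.3 at female day 6 (19.0 to 28.2) and 18.9 at female day 8 (15.8 to 22.4). These levels ranked at percentiles 12.4, 66.3, 26.3 and 25.4 of their lists, so that only the one in female vehicle was above the middle of its list. Of the 5 peaks in each vehicle list, 3 in males and 4 in females had no overlapping peak at any treated day. The same held for 80.3% of all male vehicle peaks and 53.9% of all female vehicle peaks. With 5 peaks per list, no loss particular to Igf1 is read from these counts.

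Igf1r, the IGF1 receptor, is the longest of the genes (chr7:67952257-68233668) and had the most peaks in 5 lists, with 28, 4, 6 and 7 in males and 7, 23, 48 and 33 in females. Its promoter was in no peak at male day 6 or in female vehicle. There the closest peak was 149090 and 31457 bp from the start. In treated females the promoter peak spanned 3104, 3452 and 3476 bp at days 4, 6 and 8, and in the 3 male lists that had one it spanned 631 (day 8) to 1211 bp (day 4). Its level ranked from percentile 7.73 at female day 4 to 55.2 at female day 6 and was above the middle of its list only at female days 6 and 8. The region of Igf1r with a peak in all 8 lists was not the promoter but lay in an intron 177 kb into the gene (chr7:68126738-68132174). Of the 28 male vehicle peaks, 23 (82.1%) had no peak at any treated male day, close to the 80.3% of all male vehicle peaks. The start closest to 70 of the Igf1r peaks was that of Pgpep1l, a neighbor past its far end.

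Insr, the insulin receptor (chr8:3150922-3279649, minus strand), had 9, 4, 11 and 2 peaks in males and 5, 13, 18 and 22 in females. A peak within 209 bp of the start was found in all 8 lists. In female vehicle it ended 209 bp inside the gene, just short of the promoter window, so Insr counted there as having no promoter peak. The peak at the start was 683 bp wide in female vehicle and 2264, 2817 and 2171 bp at female days 4, 6 and 8. This was among the strongest promoter peaks, with 101 tags per 10 M per kb at female day 6 (94.4 to 108) and 74.8 at female day 8 (69.2 to 80.8). The level ranked at percentiles 76.5, 59.9, 98.7 and 87.4 in males and 88.0, 92.9 and 98.8 at female days 4, 6 and 8.

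**Figure D3:**
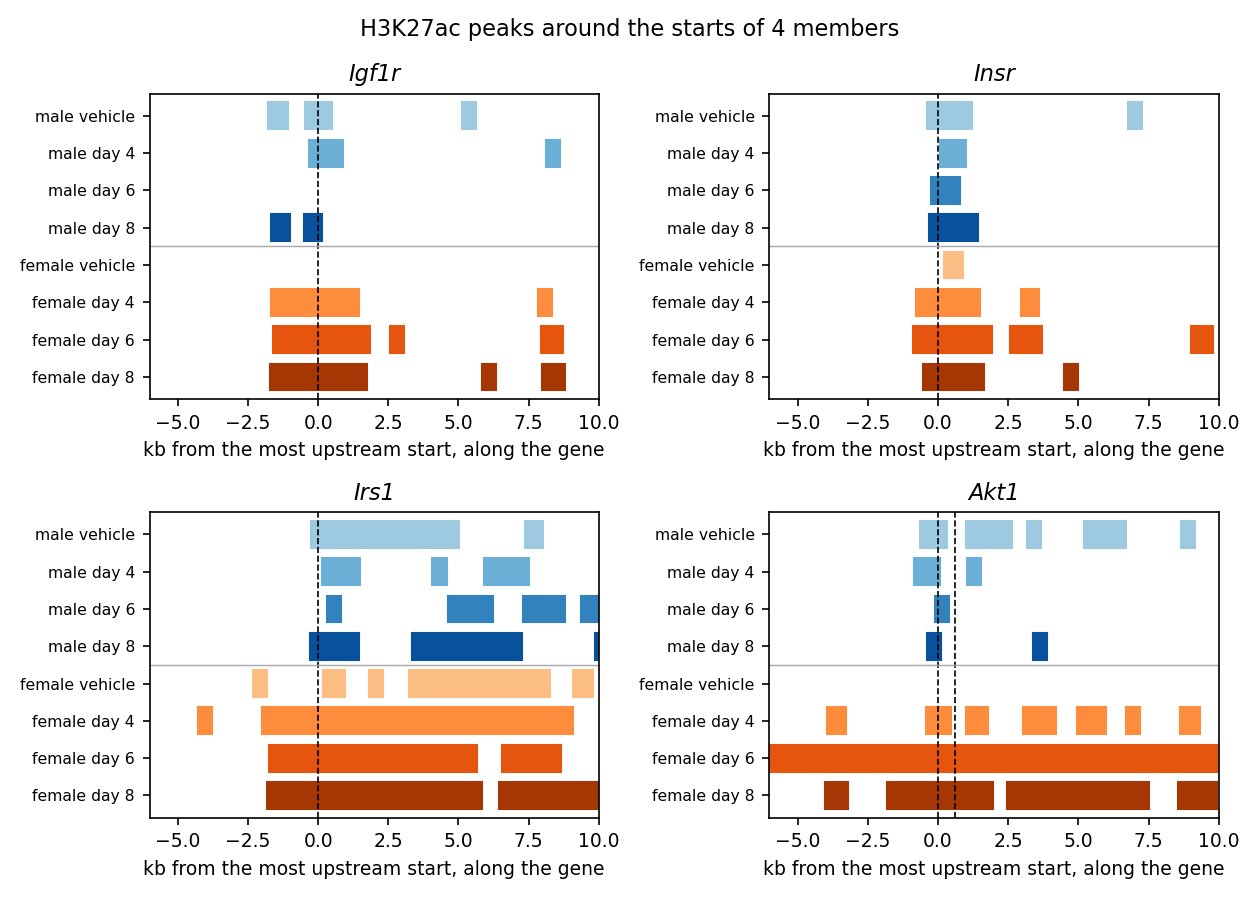
Peaks around the starts of Igf1r, Insr, Irs1 and Akt1 in the 8 lists (rows), drawn to scale in kb along the gene from its most upstream curated start, with dashed lines at the starts and bars cut at the panel edges. Female vehicle has no peak in the panels of Igf1r and Akt1, a peak 209 bp from the start of Insr and one 182 bp from that of Irs1.

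Irs1 and Irs2 are the main insulin receptor substrates of muscle. Irs1 (chr1:82233105-82291439, minus strand) had 8, 3, 8 and 4 peaks in males and 8, 12, 12 and 15 in females. Its promoter was in no peak at male day 4, male day 6 and in female vehicle, yet a peak lay 123, 319 and 182 bp from the start in these lists. At female days 4, 6 and 8 a broad peak of 11105, 7409 and 7661 bp ran over the start, with 21.7, 71.3 and 47.3 tags per 10 M per kb (percentiles 76.8, 80.8 and 87.0). In male vehicle the peak was 5261 bp wide and ranked at percentile 53.2, and at male day 8 it was 1733 bp wide and ranked at 72.8.

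Irs2 (chr8:10984681-11008929, minus strand) had 4, 2, 4 and 1 peaks in males and 4, 5, 7 and 4 in females, with the promoter in a peak in every list. The width of the promoter peak went from 883 bp in female vehicle to 10787 bp at female day 8, with 4074 and 6827 bp between them at days 4 and 6. In males it was 5766 bp in vehicle, then 2784, 2746 and 3435 bp. The level of this peak ranked from percentile 8.41 in female vehicle to 83.9 at female day 4. A noncoding gene on the other strand, 9530052E02Rik, starts 1079 bp from Irs2, and its start was the closest one to 24 of the peaks of Irs2.

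Pik3ca encodes the p110α catalytic subunit, Pik3r1 the p85α family of regulatory subunits that bind Irs proteins, and Pik3c2a a class II PI3K. All 3 had a promoter peak in every list. Pik3ca (chr3:32397065-32466112) had 3, 2, 8 and 1 peaks in males and 3, 11, 11 and 15 in females. Its promoter peak ranked at percentiles 73.8, 15.2, 51.8 and 7.46 in males, where the day 4 peak had a wide interval (24.0 tags per 10 M per kb, 10.9 to 45.4). In females it ranked at 82.4, 70.6, 82.8 and 74.0, so that it was in the upper part of all 4 female lists.

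Pik3c2a (chr7:116337265-116443465, minus strand) had the fewest peaks over the 8 lists, with 2, 1, 3 and 3 in males and 5, 3, 3 and 1 in females. Like Igf1, it had more peaks in female vehicle than in any treated female list. Its promoter level ranked at 60.9, 51.0, 44.5 and 74.7 in males and at 21.1, 63.6, 82.7 and 66.1 in females, with female vehicle the lowest of the 8.

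Pik3r1 (chr13:101680761-101768217, minus strand) had 12, 4, 10 and 1 peaks in males and 6, 17, 27 and 20 in females. It has 2 curated starts. The promoter of the upstream start was in a peak in all 8 lists, although the male day 4 peak ended just inside the gene, and that of the downstream start, of a shorter transcript, only at female days 4, 6 and 8. The strongest promoter peak of the gene ranked at percentiles 85.1, 56.4, 80.5 and 97.9 in males and 23.1, 94.8, 91.9 and 96.2 in females. Its level in female vehicle was 16.9 tags per 10 M per kb (13.9 to 20.4), below the median promoter peak of that list (20.4).

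Akt1 and Akt2 are the Akt kinases of muscle, and Akt2 is the form most tied to insulin-stimulated glucose uptake. Akt1 (chr12:112653821-112674884, minus strand) had 6, 3, 1 and 2 peaks in males and 0, 7, 4 and 9 in females. It was the only member with no peak in a list. The 4 peaks of female day 6 included one of 20305 bp that ran over both starts and most of the gene, and the promoter peak was 887 bp wide at female day 4 and 3774 bp at day 8. Its level per kb was near or below the middle in 5 lists (percentiles 46.9, 35.7 and 9.95 at male days 4, 6 and 8, and 44.7 and 46.8 at female days 6 and 8) and higher in male vehicle (69.3) and at female day 4 (77.6). The start of the neighbor Zbtb42 lies 3956 bp from the closer Akt1 start on the other strand, and that of Mir6939 was the closest to 12 of the peaks of Akt1.

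Akt2 (chr7:27591552-27640826) had 13, 4, 3 and 3 peaks in males and 4, 7, 9 and 9 in females. Its promoter peak was strong throughout, at percentiles 75.0, 90.0, 90.9 and 98.6 in males and 68.5, 92.2, 70.3 and 94.3 in females, with the highest median of the 10 genes (90.5). At female day 6 a single peak of 22309 bp covered all 4 curated starts, and at female day 8 a peak of 16419 bp covered the 3 downstream starts, beside a stronger one of 4156 bp at the first.

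**Figure D4:**
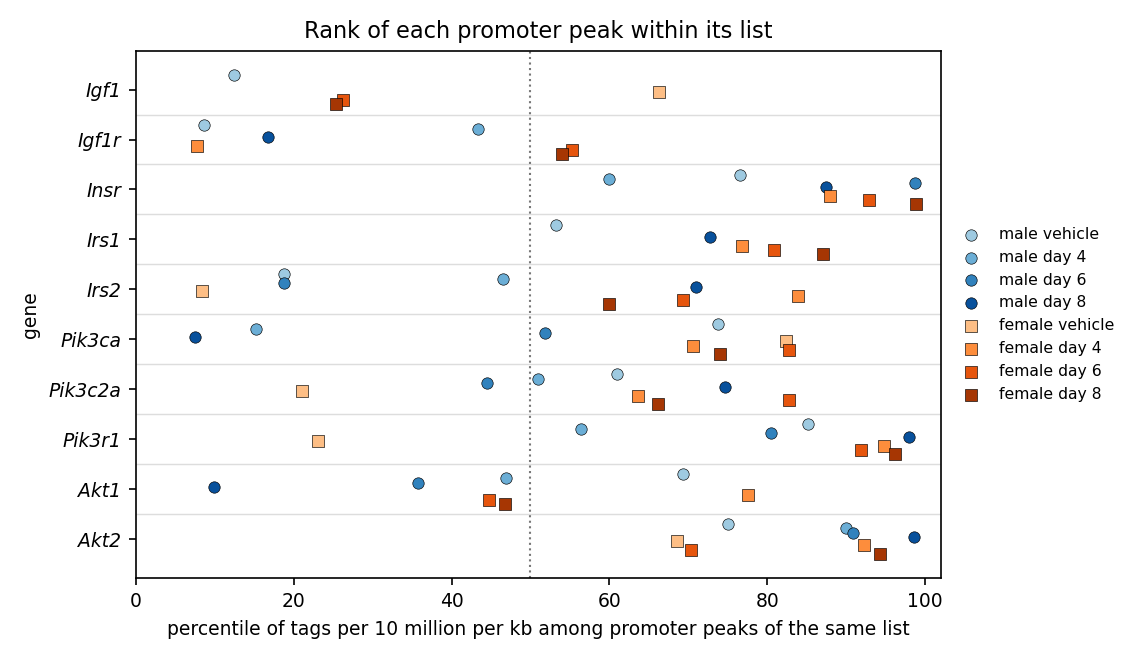
Rank of the promoter peak of each gene within its list (x axis, percentile of tags per 10 M per kb among peaks over protein-coding promoters, dotted line at the middle of the list), with circles for male and squares for female lists. Akt2 lies between 68.5 and 98.6 and Igf1r between 7.73 and 55.2, and a list without a point is one in which the promoter was in no peak.

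Against vehicle, the promoters of Igf1r, Insr, Irs1 and Akt1 were in a peak at day 4, day 6 and day 8 in females and not in female vehicle. The same held for 25.8% of all protein-coding genes and for 34.0% of those whose promoter was in no vehicle peak. Neither share was matched for CpG. The CpG-rich class, which holds the richest starts of Igf1r, Irs1 and Akt1, also rose. It went from 28.6% in a peak in female vehicle to 72.2%, 88.7% and 83.5% at days 4, 6 and 8. No gain particular to the members is therefore read from these counts. At single days the gained promoters were the same 4, against a background of 27.4%, 42.9% and 35.8% at days 4, 6 and 8. These were all the members whose promoter was in no female vehicle peak. For Insr and Irs1 the vehicle list had a peak within 209 bp of the start, so that with 1 kb on both sides counted as promoter only Igf1r and Akt1 were gained at all 3 days. The share of all genes gained with this wider promoter is not given. With the lists cut to equal length by findPeaks score, only Igf1r was gained at all 3 days in females (6.39% of all genes), and Insr, Irs2 and Pik3ca were in males (4.44%). Cut to the same length by tags, Igf1r, Insr, Irs1 and Akt1 were still gained in females (19.5% of all genes) and 0 in males (1.27%). In the full lists, Igf1 was the only promoter lost in females, at day 4 (background 0.838%), and none was lost at day 6 (0.471%) or day 8 (0.510%). Of the 5112 genes with the promoter in a female vehicle peak, 176, 99 and 107 lost it at days 4, 6 and 8. Cut to equal length by tags, Igf1 was lost at days 4 and 6. Cut by findPeaks score, Igf1 and Pik3c2a were lost at day 4 and Igf1 and Akt2 at day 6. By that cut Igf1, Pik3c2a, Pik3r1 and Akt2 were lost at day 8. No share of all genes is given for these cuts, so nothing about the members is read from them. Over the gene window, Akt1 alone was gained at each female day, against 22.1%, 28.1% and 24.1% of all genes, and no member was lost (4.69%, 3.31% and 4.54%).

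All 10 member promoters and windows were in a peak of the full male vehicle list, so that no gain was possible in males and nothing is read from the absence of one. Of all genes, 2.11%, 2.09% and 2.45% had the promoter gained at days 4, 6 and 8, and 0.271% at all 3 days (0.530% of those in no vehicle peak). In the full lists, Igf1 and Irs1 were lost at day 4 (background 23.9%), Igf1, Igf1r and Irs1 at day 6 (22.8%) and Igf1 at day 8 (19.4%). These shares are over all 21000 genes, of which 10250 had the promoter in a male vehicle peak and could lose it. Of these genes, 5023, 4792 and 4081 lost it at days 4, 6 and 8. Cut to equal length by tags, only Irs1 was lost, at days 4 and 6, and cut by findPeaks score only Igf1r was, at day 6. The Igf1 promoter was in no male vehicle peak under either cut. With 1 kb on both sides of a start counted as promoter, Irs1 was not lost. The share of all genes lost is not given under these settings, so nothing about the members is read from them. No member's gene window was lost in males, against 31.0%, 27.8% and 28.6% of all genes at days 4, 6 and 8, and 1.13%, 2.56% and 1.73% of all genes had it gained. Of all genes, 16189 had a peak in the window in male vehicle and could lose it. Of the 90 male vehicle peaks at members, 18 overlapped a peak at day 4, 23 at day 6 and 18 at day 8, and 56 (62.2%) overlapped none, against 80.3% of all male vehicle peaks. Of the 47 female vehicle peaks, 24, 24 and 27 overlapped a peak at days 4, 6 and 8, and 16 (34.0%) overlapped none, against 53.9% of all. Promoters of 7 members (all but Igf1, Igf1r and Irs1) were in a peak in all 4 male lists, against 16.2% of all genes. The lowest level of any listed male day 4 peak was 6.65 tags per 10 M, and 2 of the 90 vehicle peaks were below it. The lowest findPeaks score of that list, 7, equals 9.31 tags per 10 M at its depth, and 7 of the 90 were below that.

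The study defined prednisone-responsive enhancers (PREs) as day 4 peaks with no vehicle peak. In males 9 of the 28 day 4 peaks at members were PREs (32.1%, Wilson 95% interval 17.9% to 50.7%), against 45.4% of all male day 4 peaks. In females 85 of 101 were (84.2%, 75.8% to 90.0%), against 81.9%. All 9 male PREs had their center in an intron, as did 75 of the 85 female PREs (88.2%) and 517 of the 623 member peaks of all lists. The male PREs lay at 5 members, Insr (3), Igf1r (2), Pik3r1 (2), Irs2 (1) and Akt1 (1), where 21.5% of all genes had one, and 1 PRE of Insr was the only one with a peak at day 6 and none had a peak at day 8 (0 of 9, up to 29.9%). The background over all male PREs was 5.84% for day 6, 5.01% for day 8 and 1.70% for both.

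Female PREs were found at every member, from 2 at Pik3c2a to 22 at Igf1r, and at 66.3% of all genes. Of the 85, 52 had a peak at day 6 (61.2%, 50.5% to 70.8%), 47 at day 8 (55.3%, 44.7% to 65.4%) and 41 at both (48.2%, 37.9% to 58.7%). The shares over all female PREs were 50.3%, 43.6% and 37.7%. Genes differed in how many were kept. All 7 at Akt1 and all 5 at Akt2 had a peak at both later days, as did 9 of 13 at Pik3r1, 5 of 10 at Pik3ca, 5 of 11 at Insr and 7 of 22 at Igf1r. At Irs1 1 of 9, at Irs2 2 of 3, and at Igf1 and Pik3c2a 0 of 3 and 0 of 2 were kept at both. The 7 PREs at Akt1 share a window of 31.1 kb in which a single day 6 peak spanned 20305 bp. The 5 at Akt2 share a window of 59.3 kb in which a single day 6 peak spanned 22309 bp. The PREs of either gene are thus not independent of each other, and these 7 and 5 are part of the 41 kept at both days. The intervals above treat all PREs as independent and may be too narrow, so no excess over all female PREs is read from them.

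**Figure D5:**
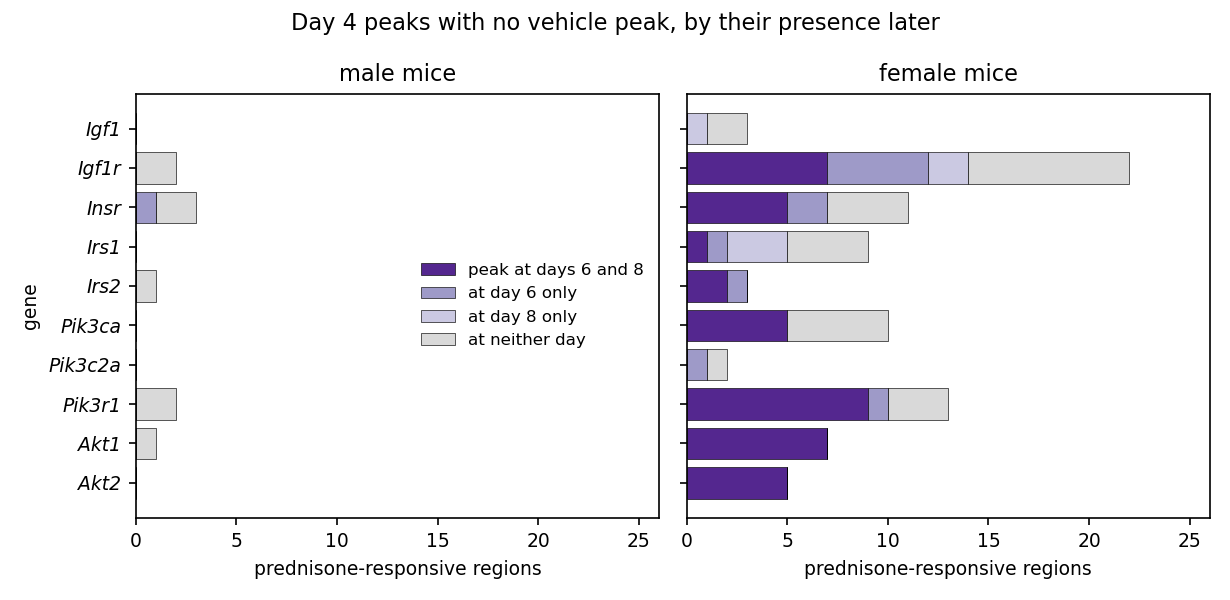
PREs in the window of each gene in males (left) and females (right), as the number of regions (x axis) split by whether a later list had an overlapping peak. Every bar of Akt1 and Akt2 in females is of the class with a peak at both later days, and 8 of the 9 male PREs had a peak at neither day.

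There were 4 female PREs over a promoter of a member (4.71% of the 85). They were at the start of Igf1r (chr7:67950594-67953698), at the start of Akt1, at the downstream start of Pik3r1 (chr13:101691612-101692627) and at the second start of Akt2 (chr7:27596032-27598404), and all 4 had a peak at days 6 and 8. The 3 female PREs with the highest findPeaks score were the Akt1 promoter (score 63), an intronic region of Igf1r 264 kb from the start (chr7:68216030-68217084, score 52) and an intronic region of Insr 58.1 kb from the start (chr8:3220875-3222166, score 46). In males they were intronic regions of Irs2 (chr8:10995276-10995929, score 9), Akt1 (chr12:112656053-112656553, score 8) and Igf1r (chr7:68156838-68157338, score 7), of which the last is 1 of 7 that tie at score 7. None of these 3 in males and each of the 3 in females had a peak at both later days. Scores are tags that are not scaled for depth and do not compare between lists.

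The number of PREs depended on the length of the lists. With all lists cut to 17482 peaks by tags, members had 14 male PREs (9 in the full lists) and 16 female PREs (85 in the full lists). Of these, 1 and 11 were present at both later days. Cut by findPeaks score, there were 21 and 26, with 7 and 3 present at both. The excess of PREs at members in females was thus small at equal length, and which sex kept more of them turned on how the peaks were ranked. No share over all PREs is given for these cuts, so nothing particular to the members is read from these counts.

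Peaks of the 8 lists merged into 239 regions at the members, of which 127 were in 1 list only, against 70.6% of the 250070 merged regions of the genome. A region with a peak in all 8 lists was found at 8 of the genes, the exceptions being Igf1 and Akt1, and 1.70% of all regions were of this kind. At a fold over input of at least 4 there were 4 such regions at the members, and with the lists cut to equal length there were 0 by findPeaks score and 8 by tags. The share of all regions is not given under these settings. Apart from the intronic region of Igf1r, each of the 8 regions of the full lists lay over a promoter. These were Insr (chr8:3277699-3280516), Irs1 (chr1:82280928-82293764), Irs2 (chr8:10999466-11010556), Pik3ca (chr3:32395601-32398310), Pik3c2a (chr7:116442546-116445487), Pik3r1 (chr13:101764908-101769256) and Akt2 (chr7:27589613-27611922). A further 10 regions had a peak at female days 4, 6 and 8 and in no other list, and 0 had one at the 3 treated male days and in no other list. Of all regions 1.88% were of the female kind and 0 of 250070 of the male kind, so that the lists as a whole had the same contrast between the sexes.

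None of these 10 regions lay over a promoter. Igf1r held 3 of them, at chr7:68060105-68063802, chr7:68144000-68144995 and chr7:68152423-68154312, which lie 110 to 201 kb into the gene. Pik3r1 held 3, between its starts, at chr13:101725471-101727648, chr13:101732231-101733540 and chr13:101738667-101740720. Pik3ca held 2, at chr3:32408585-32409594 and chr3:32416369-32418709, which are 12.0 and 20.5 kb from its start. Insr held 1 (chr8:3260048-3263168, 18.0 kb from the start) and Irs1 held 1 (chr1:82258440-82259535, 32.5 kb). Their levels reached at most 30.3 tags per 10 M per kb, at the Pik3ca region 20.5 kb from the start, against 101 for the Insr promoter.

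The study searched for GR binding at matches to ACANNNTGT, and 387 matches were counted in the 10 windows. Of these 132 lay in a peak of at least 1 list, 9 in at least 5 lists and 1 in all 8. The match in all 8 lists lay in the first intron of Insr, 0.617 kb from the start. Density in member peaks was 0.307, 0.269, 0.279 and 0.212 matches per kb in males and 0.405, 0.343, 0.354 and 0.362 in females. Over all peaks of the same lists it was 0.299, 0.219, 0.343 and 0.257 in males and 0.349, 0.313, 0.300 and 0.313 in females. Female member peaks were thus slightly denser than their lists at each time and male member peaks in 2 of 4 lists. A match in the central 300 bases was found in 8.89%, 14.3%, 8.62% and 12.0% of male member peaks. Over all peaks of those lists it was 8.46%, 6.41%, 10.2% and 7.76%. In females it was 12.8%, 9.90%, 9.79% and 7.63%, against 10.2%, 8.95%, 8.24% and 8.73%. By this measure member peaks were below their lists at male day 6 and female day 8 and above them elsewhere. The member shares rest on 8, 4, 5 and 3 peaks in males and 6, 10, 14 and 10 in females, so nothing is read from their direction. The matches outside exons that were in peaks of at least 6 lists, or in all 3 peaks of a region found only in treated females, are shown with 20 bases on each side, on the plus strand and with the match in capitals.
Insr, 8 lists, chr8:3278976-3279024: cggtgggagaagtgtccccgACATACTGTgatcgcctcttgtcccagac
Irs1, 6 lists, chr1:82284706-82284754: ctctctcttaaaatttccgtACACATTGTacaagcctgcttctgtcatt
Pik3ca, 6 lists, chr3:32398025-32398073: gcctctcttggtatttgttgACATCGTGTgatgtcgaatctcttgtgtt
Pik3r1, 6 lists, chr13:101719495-101719543: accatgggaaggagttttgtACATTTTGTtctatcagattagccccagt
Pik3ca, treated females only, chr3:32408848-32408896: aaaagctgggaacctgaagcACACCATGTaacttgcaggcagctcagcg
Pik3r1, treated females only, chr13:101727416-101727464: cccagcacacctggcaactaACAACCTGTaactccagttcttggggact
A match describes these letters and is not evidence of binding.

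For a further 52 genes of the pathway, a list chosen with earlier results of these data known, the promoters were counted. They were in a peak for 42, 30, 26 and 30 genes in males and 22, 41, 50 and 46 in females. In every list this share was below that of the members and above that of all genes. In females 19 of the 52 (36.5%) were gained at all 3 treated days, against 25.8% of all genes. They included the Akt-activating kinase Pdpk1, the mTOR kinase Mtor with its partners Rptor and Rictor, the Akt substrate Tbc1d4 of glucose transport and the p110β subunit Pik3cb. In males 0 of the 52 were gained at all 3 days, and 13, 16 and 12 were lost at days 4, 6 and 8 (25.0%, 30.8% and 23.1%, against 23.9%, 22.8% and 19.4% of all genes, of which 0.271% were gained at all 3 days). A loss was possible only for 42 of the 52 and for 10250 of all 21000 genes, those in a male vehicle peak. The promoters of Foxo1 and Foxo3, the targets that Akt restrains, and of Tsc1, Gsk3a, Pik3r3, Pik3r4, Shc1, Gab1, Sh2b1, Bad, Mlst8, Inppl1, Phlpp1 and Ptpn1 were in a peak in all 8 lists, 14 of the 52 against 12.5% of all genes.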

How the data were processed

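ChIP was performed by the authors on 2 replicates and 1 input per group, 24 samples in all. Per the labels and methods, reads were aligned to mm10 with Bowtie2 (2.2.6 in the submitters' processing notes, which also name TopHat2 2.1.0) and peaks were called with HOMER findPeaks in histone style, with at least 2-fold enrichment over input. The processed files that the authors deposited, as used here, hold 1 list per group, and the reads were not used. The normalized tag count they deposited is a signal scaled to 10 M tags. The findPeaks score they deposited is a tag number not scaled for depth. The deposited tag count of the H3K27ac library was a whole count in 2 lists and a scaled signal in 6. The deposited ratio of H3K27ac to input tags is the fold over input. The deposited p-values were not used, and 0 columns were left without a group. Depth came from the whole counts in 2 lists and, in the other 6, from the step between deposited normalized values under 10 tags per 10 M, of which 100% lay within 0.0051 of a whole multiple of 1 tag.

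Gene models were the 21000 protein-coding genes that have a curated transcript in RefSeq for mm10 (GRCm38.p6). A PRE was a day 4 peak that shared no base with the vehicle peaks of its sex. Regions were peaks of the 8 lists merged when they overlapped. Presence in a later list was an overlap of 1 bp. Wilson and exact Poisson 95% intervals cover counting error only, and the Wilson intervals treat peaks of the same gene as independent. The members, gene lists and alternatives were chosen with earlier results of these data known. The named items were all 10 members, the peak with the highest score of each member and list (used in the counts only), every region in all 8 lists or only in the 3 treated lists of a sex, for each sex the 3 top-scoring PREs, and pathway genes in all 8 lists, in none or gained at 3 days, of which examples are named. Overlap steps were tested on simulated lists, and 7 of 7 planted values were recovered. Scripts ran under Python 3.11.15 with pandas 2.3.3 and numpy 2.4.6 for tables, pysam 0.24.0 for sequence, scipy 1.17.1 for intervals and matplotlib 3.10.9 for plots.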

Additional observations from a re-analysis of the deposited data

Results flagged for a closer look

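Between vehicle and day 4, the number of peaks at the members went in opposite directions in the sexes. It was lower by 62 peaks in males (a difference of -62, from 90 to 28) and higher by 54 in females (from 47 to 101). The same opposite signs were found at 8 of the 10 genes, all but Igf1 and Pik3c2a, which had fewer peaks at day 4 in both sexes, and at 46.6% of all protein-coding genes (54.9% of the 17831 with a peak in these 4 lists). At Igf1r the count went from 28 to 4 in males and from 7 to 23 in females, and at Akt1 from 6 to 3 and from 0 to 7. The lists as a whole moved the same way, from 87600 to 17482 peaks in males and from 38861 to 67503 in females, and depth moved with them, from 31.6 to 7.52 M tags in males and from 27.5 to 49.0 in females. With the lists cut to 17482 peaks by tags, the member counts were 27 and 28 in males and 26 and 30 in females. There is 1 list per sex and group, so the difference between the sexes was not tested.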

How the results depend on the processing

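Of 137 counts recomputed under alternative settings, 117 stayed within 1.5 times the value reported. The number of members with a peak in the window stayed so under all of them. Cutting the lists to equal length by findPeaks score gave 5 promoters in a peak for male vehicle, 4 at female day 6 and 5 at female day 8, 21 male and 26 female PREs, of which 7 and 3 were present at both later days, 0 regions in all 8 lists, and 3 male promoters and 1 female promoter gained at all 3 days. Cutting by normalized tag count, chosen after seeing the data, gave 14 male and 16 female PREs, with 1 and 11 at both later days, and gave 8 regions in all 8 lists and 0 male and 4 female promoters gained at all 3 days. A fold over input of at least 4 gave 2 promoters in a peak at male day 6 and 4 regions in all 8 lists. Counting the start base itself gave 5 promoters at male day 4. Only windows within 10 kb of a start gave 2 male and 22 female PREs. With 1 kb on both sides of a start, chosen after seeing the data, 2 female promoters were gained at all 3 days. The predicted transcripts and the restriction to peaks closest to their own gene, also added after seeing the data, gave no count outside this range. The cause of these shifts was not tested beyond what each setting removes.

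No paired analysis was possible because the processed files used here hold 1 list per group, with no values of single replicates (the reads were not used), and for the same reason leaving out a replicate was not possible. Depth was lowest in the male day 4 list, where 1 tag is worth more than in any other list, and its part in the counts was not tested.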
